A study of Mus musculus with 4 samples.

Results

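To describe p53 binding between genes, the deposited list of 7384 p53 peaks was restricted to those induced by irradiation and lying in intergenic DNA near genes, which left 2077 peaks, 34.6% of the 6001 peaks in the same stretch of the list. The authors' peak number orders the list by the fold change in p53 binding after ionizing radiation (IR), with number 1 as the largest fold increase. A fold change also depends on the untreated signal, so this is not an order of absolute gain. A peak was kept when its number lay above 500 and below 6502 and its centre lay outside every GENCODE M1 transcript, more than 1000 bp and at most 50000 bp from the nearest transcription start site (TSS). The members were thus chosen by their rank of fold change in p53 binding and by their position, and both are given as a description. At the limits, the nearest peak kept lay 1007 bp from the TSS of Esco2 and the first one left out lay 997 bp from that of Gm16602, while at the far end 49973 bp was inside and 50014 bp outside. By number, the first peak kept was 510 and the last 6500, and the intergenic peaks next to them on the outside had the numbers 498 and 6506.

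The peaks come from chromatin immunoprecipitation sequencing (ChIP-Seq) with an antibody against p53 in Ba/F3 cells, an interleukin-3-dependent mouse pro-B cell line, either untreated or irradiated with 3 Gy and collected 3 h later. Untreated HPC7 cells, a mouse multipotent progenitor line, gave one more p53 library, and another holds H3K27ac, a mark of active enhancers and promoters, in irradiated Ba/F3 cells. Both lines stably express FLAG-tagged murine MYSM1 and are held under puromycin, so every group carries this transgene, and there was 1 library per condition. The deposited list has no column of a single library, so no value per sample is given, and read intensities that the study tabulated elsewhere were not used here.

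p53 is a transcription factor that is stabilized after DNA damage and activates genes for cell cycle arrest, apoptosis, DNA repair and metabolic control. It binds as a tetramer to a pair of 10-base half-sites, each with 3 purines, a core of 4 bases that starts with C and ends with G, and 3 pyrimidines. Much of its binding lies away from promoters, in introns and between genes, where the gene it acts on need not be the nearest one, and in human cells p53 sites are also known in copies of endogenous retroviruses. In this report a p53 site is a run of 20 bases within 100 bp of the peak centre that holds both half-sites without a spacer, keeps C and G of both cores, and differs from the consensus at no more than 3 positions.

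The sites below are those of peaks whose nearest gene is on a list of p53 target or hematopoietic genes, or whose site had no mismatch, and they show how the same consensus is met in unrelated DNA. Each line gives the mm9 coordinates of the site on the forward strand with 20 flanking bases on each side, and capitals mark the site.
Ddit4 peak 5992, site at chr10:59411250-59411269: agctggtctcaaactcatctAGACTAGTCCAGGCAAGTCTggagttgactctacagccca
Ddit4 peak 3890, site at chr10:59419209-59419228: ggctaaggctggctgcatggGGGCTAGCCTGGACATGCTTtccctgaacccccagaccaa
Ddit4 peak 1802, site at chr10:59407226-59407245: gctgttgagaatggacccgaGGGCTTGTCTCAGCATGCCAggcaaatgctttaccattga
Plk2 peak 5524, site at chr13:111183090-111183109: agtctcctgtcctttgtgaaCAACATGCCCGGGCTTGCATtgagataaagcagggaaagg
Phlda3 peak 4449, site at chr1:137656446-137656465: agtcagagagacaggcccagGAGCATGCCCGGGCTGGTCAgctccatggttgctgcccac
Bid peak 856, site at chr6:120871855-120871874: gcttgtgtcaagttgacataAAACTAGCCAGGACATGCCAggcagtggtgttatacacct
Trp53inp1 peak 3732, site at chr4:11103504-11103523: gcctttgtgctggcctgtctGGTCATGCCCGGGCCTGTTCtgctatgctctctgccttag
Ulk1 peak 4614, site at chr5:111243279-111243298: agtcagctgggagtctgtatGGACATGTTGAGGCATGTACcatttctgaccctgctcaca
Myb peak 2189, site at chr10:20893504-20893523: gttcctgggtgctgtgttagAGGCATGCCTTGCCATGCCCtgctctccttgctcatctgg
Map3k7 peak 5959, site at chr4:32028657-32028676: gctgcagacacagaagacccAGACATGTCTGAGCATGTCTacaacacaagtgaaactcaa
Mxi1 peak 4934, site at chr19:53358441-53358460: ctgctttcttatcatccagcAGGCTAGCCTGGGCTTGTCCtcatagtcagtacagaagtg
A second set of peaks fell into families of similar sequence, joined at an identity of 80% or higher over at least 100 bp. One peak of each of 3 such families is shown over its whole 100 bp, again in mm9 and on the forward strand with the p53 site in capitals.
Family 1, peak 4407, chrX:17903451-17903550: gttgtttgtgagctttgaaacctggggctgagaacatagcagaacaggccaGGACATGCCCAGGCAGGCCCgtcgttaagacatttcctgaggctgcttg
Family 5, peak 592, chr2:175070791-175070890: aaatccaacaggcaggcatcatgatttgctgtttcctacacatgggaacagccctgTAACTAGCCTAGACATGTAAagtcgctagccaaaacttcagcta
Family 6, peak 526, chrX:4161507-4161606: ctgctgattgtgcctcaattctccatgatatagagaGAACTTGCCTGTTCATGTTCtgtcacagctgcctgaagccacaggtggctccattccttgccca

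Of the 2077 peaks, 1361 contained a p53 site, 65.5% (95% Wilson interval 63.5 to 67.5%). Control windows of the same length 10 kb upstream of the same peaks held one in 17 cases, 0.819%. The difference was far larger than counting error (odds ratio 230, Fisher's exact test with p below 1e-300 after adjustment over 4 classes of peak). For control windows, upstream means lower and downstream higher chromosome coordinates, whatever the strand of the gene. These windows were not held to the position rule. The share in all 3780602 windows that tile the intergenic sequence at the same distances from genes was 0.789%. Of the sites, 151 met the consensus at all 20 positions, 505 had 1 mismatch, 401 had 2 and 304 had 3. Among the mismatches, those at the outer purine and pyrimidine of the half-site were the most frequent, with 16.9% at position 1 and 16.7% at position 10, against 5.41% and 6.72% at positions 3 and 8 next to the core. Both cores read CATG in 21.1% of the sites and one core did in 60.03%. These shares count similar copies singly: 667 of the 1361 sites lay in the families described below, and 902 of the 1361 sequences were distinct. The site lay close to the middle of the peak, at a median of 9 bp from the centre, and 79.2% lay within 20 bp.

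Read from the side of the genome, most of the best sites were in the list. The intergenic sequence at these distances holds 236 sites with no mismatch, and 184 of them, 78.0% (72.2 to 82.8%), lay within 100 bp of the centre of a deposited peak of any number. The share fell with each mismatch, to 43.5% of 1337 sites with 1 mismatch, 12.1% of 6338 with 2 and 1.78% of 26078 with 3. The intervals of the 4 shares did not overlap. They count similar copies singly, and the shares were not computed without the families of repeated sequence described below. Of the 151 intergenic peaks near genes with a fully matching site, 113 were in those families. The central bases had a single copy in the assembled chromosomes in 100 of the 151. Whether reads from other copies gave rise to listed peaks was not tested.

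**Figure D1:**
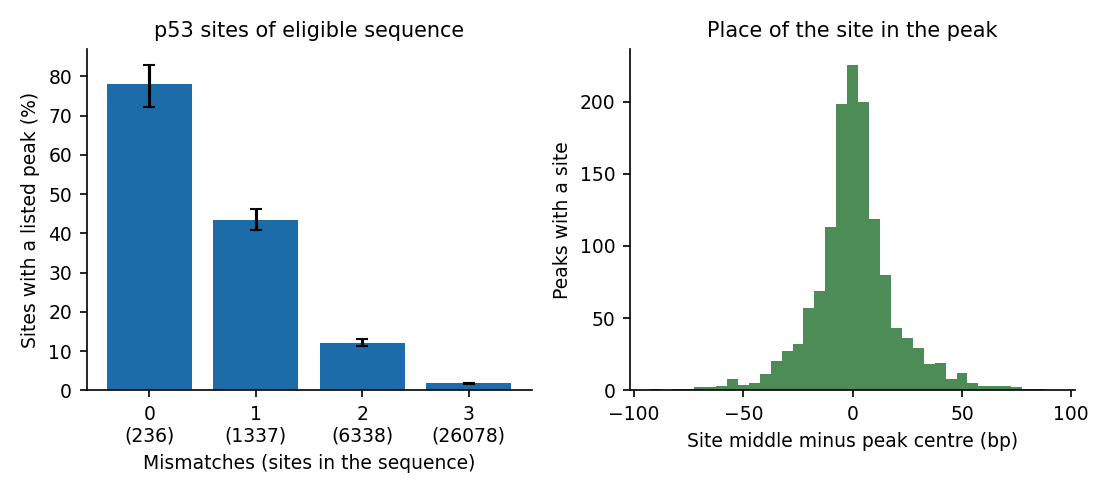
Left, share of p53 sites in intergenic sequence 1 to 50 kb from a TSS that lay within 100 bp of the centre of a listed peak, by number of mismatches to the consensus (bars with 95% Wilson intervals, number of sites in parentheses). The share fell from 78.0% at 0 mismatches to 1.78% at 3. Right, distance in bp from the peak centre to the middle of the site in the 1361 peaks with a site, which crowd around 0.

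Intergenic peaks near genes held a site less often than those farther out and more often than promoter peaks. The share was 75.2% (678 of 902) in induced intergenic peaks beyond 50 kb, 59.4% (1371 of 2310) in induced peaks inside genes and 33.7% (240 of 712) in induced promoter peaks. The odds of a site near genes were 0.628 times those beyond 50 kb (95% interval 0.527 to 0.749, Fisher's exact test, adjusted p = 2.4e-07) and 3.74 times those at promoters (3.12 to 4.48, Fisher's exact test, adjusted p = 6.7e-49). Against peaks inside genes the odds ratio was 1.30 (1.15 to 1.47, Fisher's exact test, adjusted p = 2.5e-05), but without the families of repeated sequence described below it turned to 0.867 (0.755 to 0.995, Fisher's exact test, adjusted p = 0.045), with 51.2% of 1356 peaks near genes against 54.7% of 2011 inside genes. The other 2 comparisons kept their direction without the families, at odds ratios of 0.649 and 2.26. The units of these tests are peaks of 1 list and not repeated cultures, and the intervals cover counting error only.

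**Figure D2:**
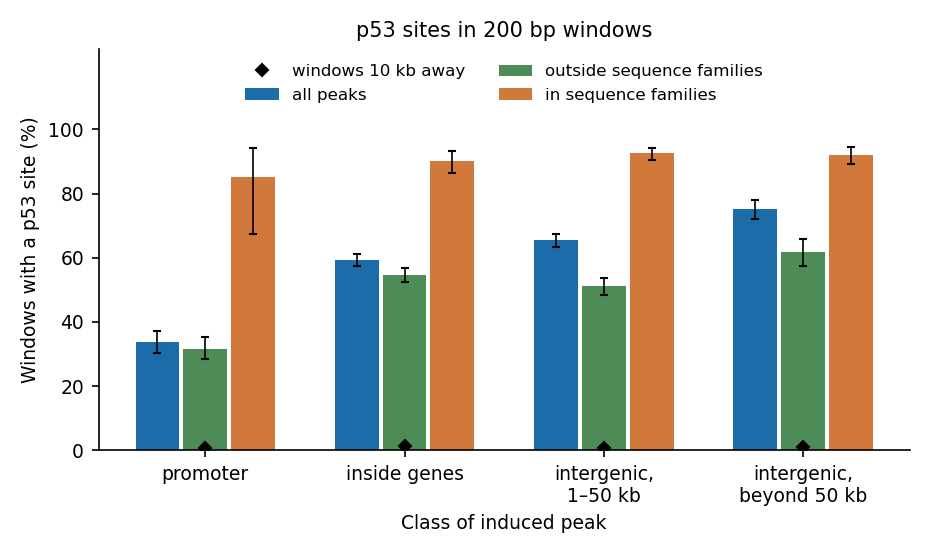
Share of 200 bp windows around the peak centre with a p53 site in 4 classes of induced peak, for all peaks, peaks outside families of similar sequence and peaks in them (bars with 95% Wilson intervals), and in windows 10 kb upstream in chromosome coordinates (diamonds). In families the share was 85.2 to 92.5% in every class, outside them it ran from 31.7% at promoters to 61.8% beyond 50 kb, and the upstream windows stayed below 1.5%.

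More than 1 in 3 of these peaks resembled other peaks in the list. Windows of 200 bp were joined when 100 bp or more aligned at an identity of 80% or higher, and a family is a joined set of at least 10 of the 7384 peaks. There were 8 families, 7 of them with intergenic peaks near genes, and 721 of the 2077 peaks (34.7%) belonged to one. This share was lower than beyond 50 kb, at 44.0% (odds ratio 0.676, Fisher's exact test, adjusted p = 1.7e-06), and higher than inside genes, at 12.9% (odds ratio 3.58, Fisher's exact test, adjusted p = 5.3e-66), or at promoters, at 3.79% (odds ratio 13.5, Fisher's exact test, adjusted p = 3.4e-73). Inside the families 92.5% of the peaks near genes held a p53 site and outside them 51.2%. Repeats were not annotated here, so the families are called by number.

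Family 1 was by far the most frequent, with 553 peaks near genes on 21 chromosomes, 26.6% of all 2077. A site was present in 517 of them, and the same 20 bases, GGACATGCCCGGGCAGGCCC on one strand or the other, stood in 153. This sequence has 1 mismatch to the consensus. Its variant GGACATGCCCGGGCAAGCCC, with no mismatch, stood in 48 peaks. Family 2 had 107 peaks near genes, of which 53 met the consensus fully, and its most common site, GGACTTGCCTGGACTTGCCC, stood in 11 of them. Together the 2 families held 113 of the 151 peaks with no mismatch, and the remaining 38 lay outside all families. Outside the families sites were nearly all distinct, with 685 different sequences among 694 sites.

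Many copies were alike over the length of a short read. The central 50 bases of the peak occurred more than once in the assembled chromosomes in 310 of the 2077 peaks, 14.9%, and in 263 of the 553 peaks of family 1, against 16 of the 1356 peaks outside families. The read length of these libraries and the handling of reads that match several places were not given in the sources used here. Among the 1767 peaks with a single-copy centre, 61.2% held a p53 site. Against peaks inside genes with a single-copy centre the odds ratio was 1.14, which no longer passed (Fisher's exact test, adjusted p = 0.054).

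Along the order of induction the share of peaks with a site rose, and the families rose with it. The first of 6 bins of 1000 numbers had the largest fold increases in p53 binding. There 54.7% of the peaks held a site and 13.9% belonged to a family. In the last bin, 76.3% held a site and 57.6% belonged to a family. Outside the families the share with a site stayed between 47.6 and 53.4% in all 6 bins, with overlapping intervals. Sites with no mismatch numbered 78 in the last bin against 9 to 18 in each of the others, and 57 of those 78 were of family 1. In the same bin 35.9% of the peaks had a centre with several copies, against 5.38% in the first. Among peaks with a single-copy centre the share with a site also rose, from 52.99% (47.6 to 58.3) in the first bin to 66.7% (60.1 to 72.6) in the last. In the last bin 29 such peaks had no mismatch, against 9 to 18 in each of the others. The single-copy set was not free of families. It held 290 peaks of family 1, 92.8% of them with a site, against 51.5% of single-copy peaks outside families. Whether the share rose among single-copy peaks outside the families was not tested.

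**Figure D3:**
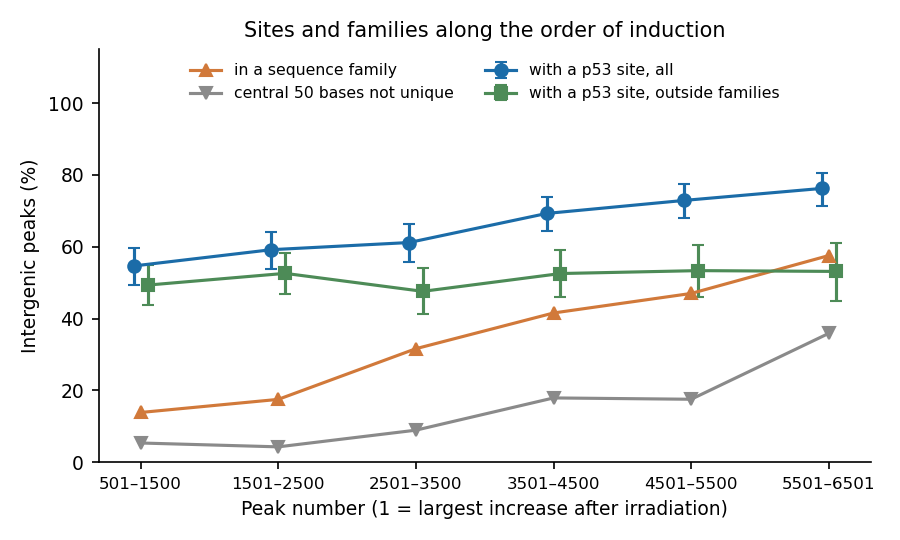
Share of intergenic peaks near genes with a p53 site, in a sequence family and with a central 50-base sequence that occurs more than once in the genome, by peak number in 6 bins (1 is the largest fold increase after irradiation, and bars are 95% Wilson intervals). The share with a site climbed from 54.7 to 76.3% over all peaks and stayed between 47.6 and 53.4% outside the families, while the families climbed from 13.9 to 57.6%.

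Some peaks of family 1, 44 of the 553, lay in pairs about 8 kb apart. Neighbouring peaks lay less than 20 kb apart in 205 cases, and 29 of these pairs were 7.5 to 8.5 kb apart. In 22 of these both peaks were of family 1, at a median of 7978 bp between centres, and in 19 the distance lay from 7900 to under 8100 bp. All 22 pairs had both copies on the same strand, the median identity of the aligned parts was 98.99% and the lowest 91.5%. A site was present in both copies of 20 pairs and met the consensus fully in both copies of 13. In 29 of the 44 peaks (65.9%) the central 50 bases occurred more than once in the genome, with a median of 11 copies over the 44, and whether reads of 1 copy gave rise to both peaks of a pair was not tested. The peaks in these pairs had a median number of 6264, against 4581 for the other peaks of family 1. This spacing was looked at after it was seen in the data. One pair upstream of a SNORA17 gene on chromosome 2 shows the likeness, with the same site and flanks in 2 peaks whose centres lay 7974 bp apart.
First copy, peak 6342, chr2:94641300-94641399: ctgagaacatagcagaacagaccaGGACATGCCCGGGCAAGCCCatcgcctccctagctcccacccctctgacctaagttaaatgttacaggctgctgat
Second copy, peak 6495, chr2:94649274-94649373: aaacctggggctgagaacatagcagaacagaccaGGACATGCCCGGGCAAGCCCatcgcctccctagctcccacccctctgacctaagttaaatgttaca
Such pairs stood next to Asns, which encodes asparagine synthetase, with sites of 0 mismatches 26.0 and 33.9 kb upstream, and next to Scml2, a Polycomb-group gene. Scml2 had the most peaks of any nearest gene, 5, all upstream between 8.0 and 47.5 kb, all in a family and all with a site.

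**Figure D4:**
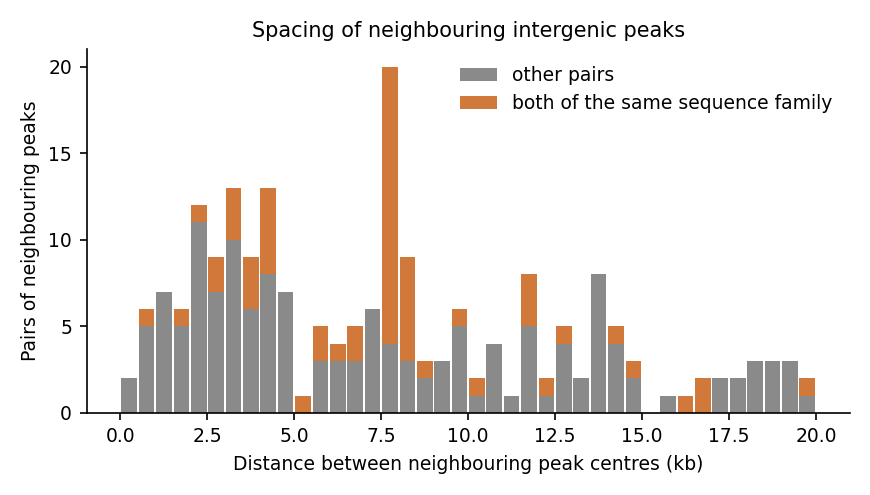
Distance between the centres of neighbouring intergenic peaks near genes, in bins of 0.5 kb up to 20 kb, with pairs of the same sequence family in orange and others in grey. The tallest column is at 7.5 to 8 kb, where 16 of 20 pairs were of the same family.

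Families 5 and 6 each kept to a single chromosome. The 17 peaks of family 5 lay on chromosome 2 between positions 175070791 and 177730801, and all held the same 20-base site with 3 mismatches, TAACTAGCCTAGACATGTAA. Every peak was upstream of a different predicted gene, 8 protein-coding genes and 9 pseudogenes, and the distances fell into 3 narrow groups. The peak was 7059 to 7133 bp away at 5 genes, 10704 to 10743 bp away at 3 and 13346 to 14275 bp away at 9. Their central 50 bases occurred 17 times in the genome. The 9 peaks of family 6 lay on the X chromosome, all downstream of the nearest TSS and 7 of them 1789 to 1908 bp from it, 8 of them next to pseudogenes. The same number carried the site GAACATGAACAGGCAAGTTC on one strand or the other, with 2 mismatches.

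Of the 2077 peaks, 1340 lay upstream of the nearest TSS and 737 downstream, that is 64.5% upstream (62.4 to 66.6%). Intergenic sequence at these distances is itself uneven, with 459 Mb upstream and 297 Mb downstream, or 60.7% upstream. Set against it, upstream peaks were 1.18 times as dense as downstream ones (95% interval 1.07 to 1.29, exact binomial test, two-sided, p = 3.8e-04), at 2.92 and 2.48 per Mb. Upstream the density was highest next to the TSS, at 3.97 per Mb (3.21 to 4.85) 1 to 2 kb away, whereas downstream it was 2.50 per Mb (1.55 to 3.82) there and 2.86 (2.40 to 3.38) at 5 to 10 kb, with intervals that overlap. It was lowest at 20 to 50 kb, where both sides had 2.2 per Mb. The median distance was 13288 bp, 11439 bp upstream and 15417 bp downstream. No difference in the share of peaks with a p53 site passed the test between sides or distances. A site was present in 65.9% of upstream and 64.9% of downstream peaks (odds ratio 1.05, 0.867 to 1.26, Fisher's exact test, p = 0.66), and in 64.3% of peaks within 10 kb and 66.3% of those beyond (odds ratio 0.913, 0.759 to 1.10, Fisher's exact test, p = 0.35), so that differences within these intervals were not detectable.

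**Figure D5:**
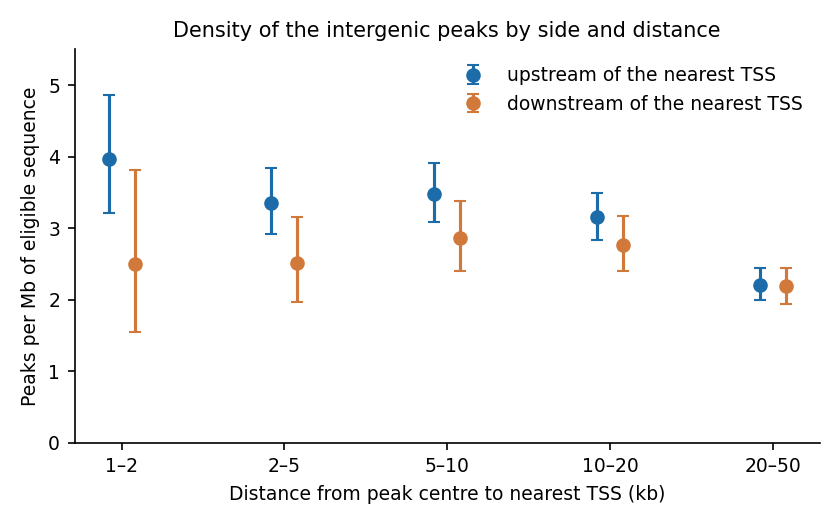
Intergenic peaks per Mb of sequence that meets the position rule, by distance from the nearest TSS (5 bins, kb) and side (points with exact Poisson 95% intervals). Upstream densities lie above downstream ones up to 20 kb, with intervals that overlap, and both sides meet at 2.2 per Mb at 20 to 50 kb.

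By arrangement of the flanking genes, 561 peaks (27.01%) lay between divergent genes, 1094 (52.7%) between genes on the same strand and 418 (20.1%) between convergent genes, against 24.9, 53.9 and 21.1% of the sequence. Peaks per Mb ranged from 1.02 (0.804 to 1.27) on the X chromosome to 4.33 (3.38 to 5.47) on chromosome 19. The nearest gene was protein-coding for 1368 peaks, 65.9%, against 55.4% of the sequence, a pseudogene for 238 and a small nuclear or nucleolar RNA for 167.

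The peaks had 1866 nearest genes, of which 1680 had 1 peak, 165 had 2 and 21 had 3 or more. These 21 were in part pseudogenes and genes for small or long noncoding RNA. Among the protein-coding ones, Bhlhe41, a transcriptional repressor of the circadian clock, had 3 upstream peaks at 4.6, 18.2 and 27.3 kb with 2, 3 and 1 mismatches. Ddit4, an inhibitor of mTORC1 that is induced by stress and a known p53 target, was flanked by peaks on both sides. The upstream one at 4.7 kb and the downstream one at 3.3 kb both met the consensus fully, and another at 7.3 kb downstream had 2 mismatches, as shown above. Csnk1e, a casein kinase, had peaks 6.7 and 14.8 kb upstream and 7.0 kb downstream, of which the farthest held no site. Ptma, Hes2, Neurod2 and Dnajb12 also had 3 peaks each, of which 1 per gene held a site. Gm13358 and Gm5533, a pseudogene and a predicted gene, had 4 upstream peaks each with 1 site among them.

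Protein-coding genes nearest to a peak were 1237 of the 22367 annotated, 5.53%, and 52 of them (4.20%) also had an induced peak within 1 kb of a TSS, against 3.07% of all protein-coding genes. An induced peak inside the gene was present for 135 of them (10.9%), against 8.00% of all. With this background, gene lists were read as counts without a test, since they were chosen with earlier results of these data known. Of 191 genes on 8 lists of p53 targets and hematopoietic regulators, 22 were the nearest gene of a peak. With the peaks placed by protein-coding genes alone, 29 were, where 7.25% of all protein-coding genes were nearest to a peak. Counting any TSS within 50 kb of a peak, 35 were, and this looser count covers 14.8% of all protein-coding genes.

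Over all protein-coding genes, 5.53% were nearest to a peak, 7.25% with protein-coding genes alone and 14.8% with any TSS within 50 kb. Among effectors of cell cycle arrest, 2 of 15 genes were nearest to a peak, and 5 (33.3%) were both with protein-coding genes alone and with any TSS within 50 kb. Plk2, a kinase of the Polo family, had one 2.2 kb upstream, and Phlda3, a repressor of AKT signalling, one 6.2 kb upstream, each with 2 mismatches. Of 22 apoptosis and death receptor genes, 3 had one, and 4 (18.2%) had a TSS within 50 kb of a peak. Bid, a BH3-only activator of the mitochondrial pathway, had a peak 5.0 kb upstream with 2 mismatches, Pmaip1, which encodes the BH3-only protein NOXA, one 11.4 kb downstream with 2 mismatches, and Mcl1, an anti-apoptotic member of the BCL2 family, one 7.8 kb upstream without a site. Metabolism, redox and autophagy genes were represented by 3 of 20, and also by 3 (15%) with any TSS within 50 kb. Besides Ddit4 these were Ulk1, a kinase that starts autophagy, with a site of 2 mismatches 4.2 kb upstream, and Sesn2, a stress sensor upstream of mTORC1, with a peak without a site 5.1 kb upstream. Of 12 genes of p53 feedback and the p53 family, Trp53inp1 was the only nearest gene, with a site of 2 mismatches 11.9 kb downstream of the TSS. With any TSS within 50 kb there were 2 (16.7%).

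Hematopoietic transcription factors contributed 5 of 37 genes, and 8 (21.6%) with any TSS within 50 kb. Fos, a subunit of AP-1, had a site of 3 mismatches 4.3 kb upstream and Myb, needed for progenitor growth, one of 2 mismatches 12.7 kb upstream. The peaks upstream of Gfi1b at 7.2 kb, Gata2 at 28.6 kb and Runx1 at 43.2 kb held no site. Of 26 lymphoid factors 3 were nearest to a peak (5 with protein-coding genes alone and 6, or 23.1%, with any TSS within 50 kb). The 3 were Pou2af1 with a site of 1 mismatch 37.7 kb upstream, and Prdm1 and Tcf7 with peaks without a site. Of 39 cytokines and receptors 4 were nearest to a peak. With any TSS within 50 kb there were also 4 (10.3%), below the 14.8% of all protein-coding genes. Il6 had a family 1 copy with 1 mismatch 21.2 kb downstream, while the peaks at Epor, 2.1 kb upstream, Csf1, 16.1 kb upstream, and Csf2ra, 20.7 kb downstream, held no site.

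The study also sorted genes by RNA-Seq of irradiated mouse stem and progenitor cells into 3 clusters, in other samples than these, and those gene names were used here without their values. Of the 175 annotated genes of cluster A, raised in wild-type but not in p53-knockout cells, 20 (11.4%) were nearest to a peak, against 6 of 58 (10.3%) in cluster B, raised in wild-type cells and with at least a tendency to rise in the knockout, and 3 of 90 (3.33%) in cluster C, which fell in wild-type cells. The background over all protein-coding genes is the 5.53% given above. With any TSS within 50 kb the counts were 44 (25.1%), 13 (22.4%) and 9 (10%), against 14.8% of all protein-coding genes. Within cluster A the nearest peak held a site at 12 of the 20 genes, which is no higher than the 65.5% of all 2077 peaks. Arhgef5 had a site of 1 mismatch 5.9 kb upstream. F11r, a junctional adhesion molecule, had one of 2 mismatches 10.9 kb downstream. The interferon-induced GTPase genes Mx1 and Mx2 had peaks 5.3 and 11.9 kb upstream, of which that of Mx2 was a family 1 copy with 1 mismatch and that of Mx1 held no site. The 3 genes of cluster C were Asns, with the pair of fully matching family 1 sites described above, Ccne1, which encodes cyclin E1, with a site of 3 mismatches 9.0 kb downstream of its TSS, and Ifngr1, which encodes a chain of the interferon gamma receptor, with a peak without a site 38.3 kb upstream.

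The 151 peaks with a fully matching site had 79 different protein-coding nearest genes. Outside the families there were 38, of which 28 had a protein-coding nearest gene and 21 lay upstream. Besides Ddit4 these included Map3k7, which encodes the kinase TAK1, 22.4 kb upstream, Mxi1, a MAX-binding antagonist of MYC, 26.5 kb upstream, Bptf, a chromatin remodelling subunit, 5.6 kb upstream, H2afz, which encodes histone H2A.Z, 16.7 kb upstream, Car2, a carbonic anhydrase, 10.0 kb upstream and Dab2ip, a GTPase-activating protein for RAS, 25.9 kb downstream. In family 2 they included Cenpm, a centromere protein gene, 1.6 kb upstream, Sat1, the polyamine-catabolizing acetyltransferase, 12.1 kb downstream, and Vldlr, a lipoprotein receptor gene, with 2 copies 26.1 and 31.8 kb downstream.

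Other transcription factor motifs were searched in the same 200 bp windows on both strands, with overlaps between motifs kept, and set against windows 10 kb upstream in chromosome coordinates. Of 12 motifs, 5 differed. The AP-1 motif TGANTCA was present in 17.3% of the peaks against 5.39% (odds ratio 3.68, Fisher's exact test, adjusted p = 6.1e-34), and the GATA motif, read as AGATAA, in 18.6% against 11.8% (odds ratio 1.70, Fisher's exact test, adjusted p = 1.0e-08). RUNX (TGTGGTT), CEBP (TTGCNNCAA) and IRF (GAAANNGAA) were less frequent than upstream, at 3.37% against 5.39%, 1.20% against 2.36% and 3.37% against 7.03%. Against windows 10 kb downstream CEBP no longer passed (odds ratio 0.563, Fisher's exact test, adjusted p = 0.056, from 0.504 and 0.016). Family 1 carried AP-1 in 46.3% and GATA in 38.9% of its peaks. Outside the families none of the 5 passed the threshold, with AP-1 in 7.37% against 5.83% (Fisher's exact test, adjusted p = 0.37) and GATA in 11.8% against 11.7%, and E2A (CAGCTG) was the only motif past the threshold, at 12.5% against 8.997% (odds ratio 1.45, Fisher's exact test, adjusted p = 0.042). Tiled intergenic windows held AP-1 in 5.91%, GATA in 13.03%, E2A in 7.08%, RUNX in 4.92%, CEBP in 1.85% and IRF in 7.98%. The windows 10 kb upstream had a mean GC content of 44.1%, against 48.2% in the peaks and 48.4% in those outside families. Whether base composition bears on these motif differences was not tested. SP1 (GGGGCGGGG) was in 0.289% of the peaks, 0.819% of the windows upstream and 0.304% of tiled windows, and did not pass (odds ratio 0.351, Fisher's exact test, p = 0.034, adjusted p = 0.068). PU.1 (GAGGAAGT) and EBF1 (CCCNNGGGA) did not pass either, at 2.02 and 1.93% of the peaks, 1.49 and 2.31% of the windows upstream and 1.25 and 1.83% of tiled windows. PU.1 did pass against windows 10 kb downstream (odds ratio 1.93, Fisher's exact test, adjusted p = 0.038, from 1.36 and 0.41). NRF1 (GCGCATGCG), PRDM14 (GGTCTCTAA) and ETS (ACCGGAAGT) were in none of the peaks, in 1 window upstream each and in 0.0250, 0.136 and 0.0322% of tiled windows. Each motif was searched as these exact letters, which are not the weighted motifs of the study's own search, so a count of 0 says only that the letters did not occur in the windows.

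The GC content of the windows was 48.2% ± 5.57 (SD, n = 2077). It was higher than in intergenic peaks beyond 50 kb, by 2.08 percentage points (permutation test with 100000 resamples, adjusted p = 1.5e-05 from a raw p of 1e-05, the smallest they can give), and lower than at promoters, at 56.0% (same test and p). Against peaks inside genes the difference was -0.016 points (permutation test, adjusted p = 0.93), but over the 100 bp of the peak alone intergenic peaks had 0.596 points more (permutation test, adjusted p = 0.0041).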

How the data were processed

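p53 and H3K27ac ChIP-Seq libraries were sequenced from Ba/F3 and HPC7 cells, 1 library per condition. According to the submitters' processing notes, reads were mapped to mm9 with Bowtie 1.0.0 and peaks were called with MACS 1.4.1; the study's methods add input DNA of the same cells as control. The authors deposited 1 peak list with positions of 100 bp and a peak number; how peaks of several libraries were merged is not given in the sources used here, and the list holds no counts, signal or p-values. The members, gene lists and motifs were chosen with earlier results of these data known. Named genes were those nearest to a fully matching site, the 5 with the most peaks with ties, and the list genes nearest to a peak, at most 30 by distance; of list genes, those beyond 16.7 kb (Gata2, Runx1, Pou2af1, Prdm1, Tcf7, Il6, Csf2ra and Ifngr1) and all examples within these sets were named after their values were seen.

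Positions were compared with GENCODE M1 transcripts on the mm9 (NCBIM37) sequence; the sequence that meets the position rule was measured on a grid of 10 bp. BLAST+ 2.17.0 searched the windows against each other at a word size of 11 and an e-value of 1e-10. Tests were run in SciPy 1.17.1, with two-sided tests, Wilson, exact Poisson or Woolf intervals of 95% and Benjamini-Hochberg adjustment. On simulated data all 200 planted sites, all 3 planted families and 500 of 500 positions were recovered. Alternatives covered mismatches, spacer, window, families, annotation, number range and control windows; single-copy peaks and direct pairs were added after the data were seen. H3K27ac was not analysed here, and the DNA repair and replication list is not reported here beyond the totals.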

Additional observations from a re-analysis of the deposited data

How the results depend on the processing

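The upstream excess, the p53 site share and its comparisons with peaks beyond 50 kb and at promoters kept their direction and their side of the threshold under every alternative run. Neither comparison within the peaks, by side or by distance, passed under any, but their directions turned: upstream against downstream, 1.05 became 0.967 and 0.970 with 2 and 4 mismatches, 0.982 with spacers and 0.977 without families, and by distance 0.913 became 1.00 over numbers up to 3000. The comparison of the p53 site with peaks inside genes did not keep its call: its odds ratio of 1.30 fell to 1.15 with spacers of 0 to 13 bases (Fisher's exact test, adjusted p = 0.070), to 1.07 over numbers up to 3000 (0.48) and to 1.14 with single-copy peaks, an alternative chosen after the data were seen (0.054), and it turned to 0.867 without families (0.045). The cause was not tested for the first 3; the last removes the family peaks, which hold more sites. Motifs past the threshold fell from 5 to 1 without families, and against windows 10 kb downstream PU.1 passed and CEBP did not. The GC difference from peaks inside genes turned from -0.016 to 0.596 points over the 100 bp of the peak. The list count rose from 22 to 29 with the nearest protein-coding gene and to 35 with any TSS within 50 kb, and a limit at number 3000 left 870 peaks. With spacers the control windows held a site in 11.8% of cases. No paired analysis was possible because there is 1 library per condition and no replicate number. The deposited list gives no depth per library, so the depth is unknown and its limits could not be given.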
